A study of Mus musculus with 10 samples.

Results

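The interferon regulatory factors Irf1, Irf2, Irf3, Irf4, Irf5, Irf7 and Irf8 were followed in 10 RNA sequencing libraries of immortalised mouse embryonic fibroblasts (connective-tissue cells grown from embryos). They were chosen by name as 7 of the 23337 gene rows in every library. The study compared cells labelled Slfn2 WT with cells labelled Slfn2 KO, and its title places the question in type I interferon responses and the NF-κB pathway. The 4 groups were WT-labelled untreated (3 libraries), WT-labelled with mouse interferon-β (IFN-β) at 5000 IU/ml for 6 h (3 libraries), KO-labelled untreated (2 libraries) and KO-labelled with the same IFN-β treatment (2 libraries). All were grown in the same serum-containing medium. The labels give a genotype, a treatment and a replicate number, and not how many cultures or lines the replicates come from. What sets replicates apart is not stated either, so p-values measure the spread between libraries. They cannot be read as the spread between independently derived lines. Strain, sex and the way the cells were immortalised are not given in the sources used here.

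Interferon regulatory factors (IRFs) are transcription factors that share an amino-terminal DNA-binding domain and read GAAA repeats in the promoters of interferon and interferon-stimulated genes. Irf3 protein waits in the cytoplasm until pattern-recognition receptors lead the kinase TBK1 to phosphorylate it, and Irf7, which interferon itself induces, then amplifies the production of interferon-α. Irf1 activates interferon-stimulated and antigen-presentation genes, and Irf2 binds the same sites and is known mainly as its antagonist. Irf5 acts downstream of Toll-like receptors and MyD88 on inflammatory cytokine genes. Irf4 and Irf8 are known from lymphoid and myeloid cells.

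The libraries held 13565815 to 16329729 reads, and a value of 3 reads, used as the floor, equalled 2.73 to 3.29 normalised reads (reads scaled by 1 constant per library). Floors cover counting error only. All 10 listed fibroblast markers were above the floor in each of the 4 groups, with a summed level of 207077 to 310975 normalised reads in untreated WT-labelled libraries and 303314 to 469725 in untreated KO-labelled ones. Among them the matrix proteoglycan gene Dcn was at 1758 ± 224 normalised reads in untreated WT-labelled (SD, n = 3) and 79.5 ± 3.19 in untreated KO-labelled libraries (SD, n = 2). Of 8 measured myeloid markers 3 were above the floor in some library (Csf1r, Mrc1 and Fcer1g; summed level of the 8 markers 24.3 to 68.1 normalised reads over all libraries), while the myeloid adaptor Tyrobp was at 0 in all of them. The B cell markers Cd79b and Ms4a1 and the T cell markers Cd3e, Cd3d and Cd8a were at 0 in every library, whereas the kinase gene Lck, listed with the T cell markers, had group means of 6.39 to 134 normalised reads. Pax5, listed with the B cell markers, was at 0 in the untreated libraries and reached at most 5.15 with IFN-β. Of the dendritic cell markers only Zbtb46 was above the floor, at 98.6 in untreated WT-labelled and 31.6 in untreated KO-labelled cells (75.2 and 22.2 with IFN-β). Their part in the results was not tested. Slfn2, the targeted gene, held 18.7, 17.4 and 15.5 normalised reads in untreated WT-labelled libraries and 527, 449 and 573 with IFN-β, against 46.1 and 34.9, then 75.0 and 171, in the KO-labelled ones. A gene-level value does not tell which exons were read, so the genotypes are named here as labelled.

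The promoters of the 4 genes that were higher with IFN-β in every library number are shown because they differ in the interferon-related letters they hold. Each sequence runs from 250 bases before to 50 bases after a RefSeq transcription start (GRCm38.p6), in the direction of the gene, with any match to 3 motifs in capitals. The motifs, searched on both strands, were an interferon-stimulated response element core (GAAANNGAAA), a STAT site of the gamma-activated type (TTCNNNGAA, the same on either strand) and the NF-κB consensus.
Irf1, chr11:53769764-53770063, plus strand: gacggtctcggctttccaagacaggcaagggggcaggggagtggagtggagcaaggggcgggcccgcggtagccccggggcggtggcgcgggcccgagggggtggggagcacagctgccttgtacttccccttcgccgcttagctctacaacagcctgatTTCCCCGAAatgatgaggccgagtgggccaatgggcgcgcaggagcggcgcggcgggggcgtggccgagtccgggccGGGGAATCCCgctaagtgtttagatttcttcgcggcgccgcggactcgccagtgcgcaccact
Irf2, chr8:46739495-46739794, plus strand: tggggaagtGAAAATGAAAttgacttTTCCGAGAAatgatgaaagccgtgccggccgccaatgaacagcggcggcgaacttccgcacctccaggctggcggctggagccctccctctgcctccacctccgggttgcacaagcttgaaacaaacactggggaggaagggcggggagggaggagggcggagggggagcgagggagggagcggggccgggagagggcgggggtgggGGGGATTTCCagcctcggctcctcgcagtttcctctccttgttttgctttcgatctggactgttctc
Irf5, chr6:29526375-29526674, plus strand: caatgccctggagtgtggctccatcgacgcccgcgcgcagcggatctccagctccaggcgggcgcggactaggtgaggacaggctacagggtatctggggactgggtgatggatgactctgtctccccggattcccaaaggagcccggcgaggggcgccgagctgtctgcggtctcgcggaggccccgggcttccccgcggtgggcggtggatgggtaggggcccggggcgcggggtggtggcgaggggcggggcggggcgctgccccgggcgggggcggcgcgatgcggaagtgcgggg
Irf7, chr7:141266375-141266674, minus strand: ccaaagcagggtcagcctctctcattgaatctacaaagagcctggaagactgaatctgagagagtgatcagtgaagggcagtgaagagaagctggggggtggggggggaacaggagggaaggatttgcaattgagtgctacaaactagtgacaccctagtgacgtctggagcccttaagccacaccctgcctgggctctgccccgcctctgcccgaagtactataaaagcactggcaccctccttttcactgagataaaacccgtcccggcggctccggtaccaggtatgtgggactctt

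In the Irf1 window the STAT-type match TTCCCCGAA lay at -90 to -82 from the transcription start and the NF-κB match GGGGAATCCC at -13 to -4. The Irf2 window held all 3 motifs, the response element core GAAAATGAAA at -241 to -232, the STAT-type match TTCCGAGAA at -224 to -216 and the NF-κB match GGGGATTTCC at -17 to -8. None of the motifs matched in the printed windows of Irf5 and Irf7, nor in those of Irf3 and Irf4, which says only that these letters are not in these windows. Irf8 held 2 STAT-type matches, TTCTCGGAA at -171 to -163 and TTCAGAGAA at -153 to -145, before its more upstream start. Irf1 and Irf8 have 2 annotated starts, and the downstream ones held no match. Over 32851 promoter windows of the same length, 3.44% held the response element core, 8.30% the STAT-type motif and 4.51% the NF-κB consensus. A match is a description of the sequence and not evidence of a bound site.

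**Figure D1:**
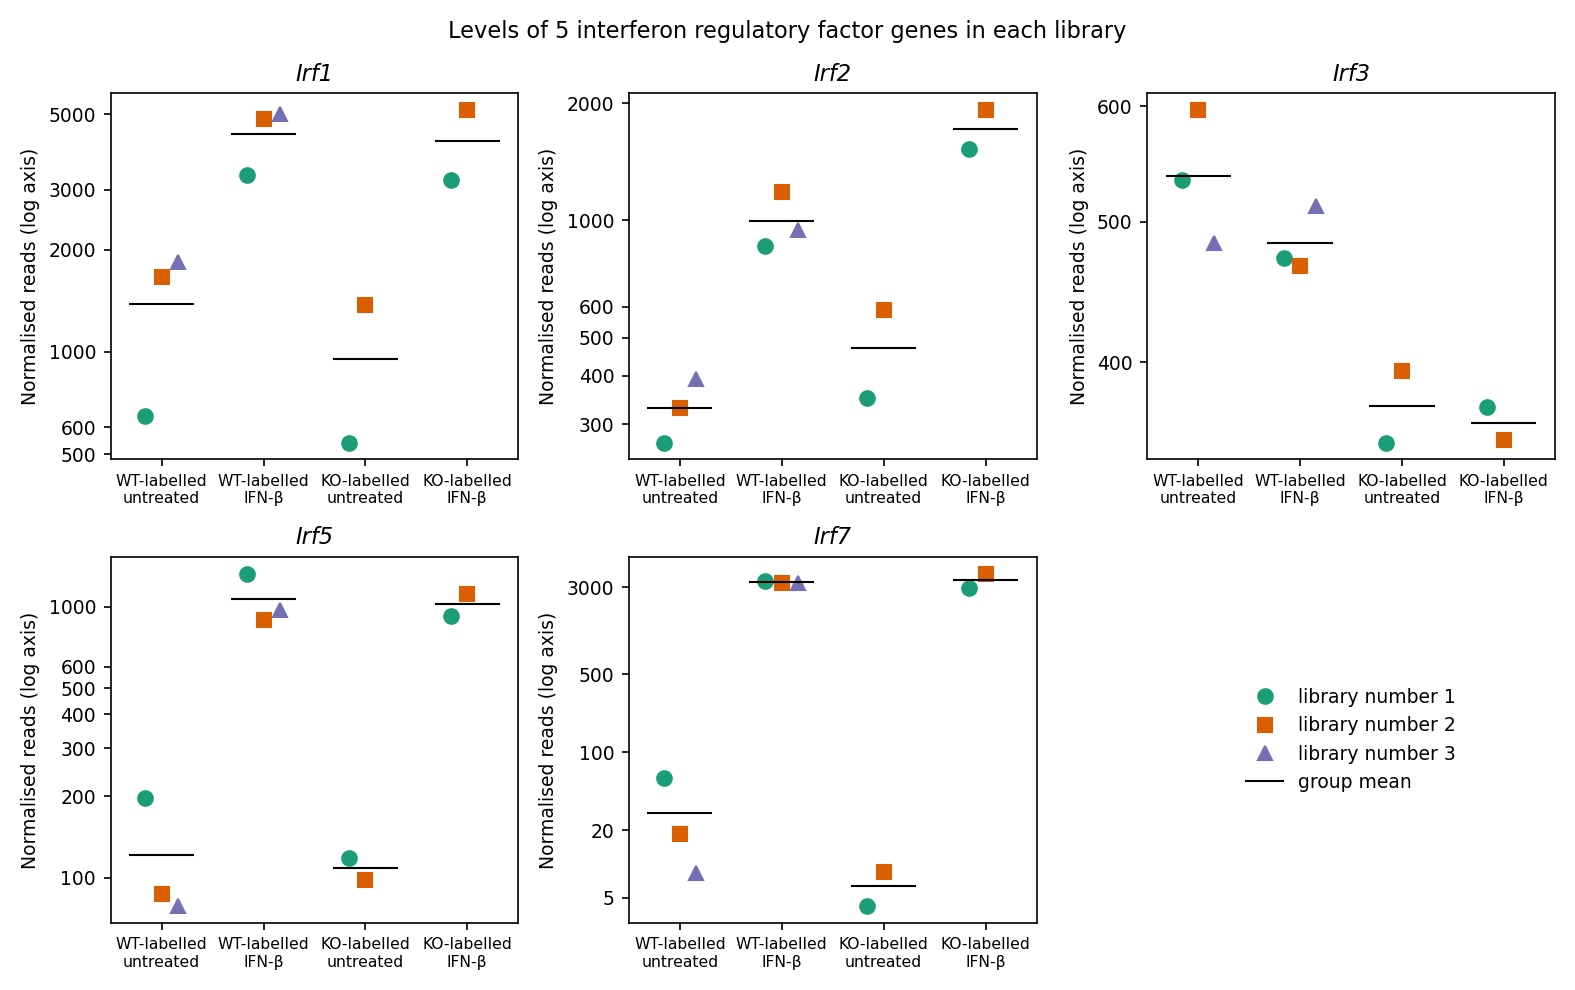
Normalised reads (log axis) of Irf1, Irf2, Irf3, Irf5 and Irf7 in each of the 10 libraries, by group, with the symbol and colour giving the library number and the black line the group mean. Irf7 moves from between 4.19 and 58.2 to between 2925 and 3956 normalised reads with IFN-β, Irf3 stays between 352 and 596 throughout, and the libraries numbered 1 are the lowest of each group for Irf1.

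Irf7, the inducible amplifier of interferon-α production, had the widest range of the 7 genes on the log2 scale. It lies on chromosome 7 at 141262706 to 141266481 (GRCm38, minus strand, protein-coding). Untreated WT-labelled libraries 1, 2 and 3 held 58.2, 18.4 and 8.26 normalised reads and the IFN-β libraries 3420.2, 3261 and 3284. KO-labelled library 1 went from 4.19 to 2925 and library 2 from 8.48 to 3956. Every treated library was far above every untreated one, and the treated libraries of both genotypes overlapped. The log2 fold change was 7.24 ± 0.57 (SE) in WT-labelled cells (adjusted p = 9.6e-05) and 8.92 ± 0.70 in KO-labelled cells (adjusted p = 0.00014). Irf7 passed under each alternative tried in both comparisons, with the log2 fold change between 6.62 and 7.95 and between 8.26 and 9.36.

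Irf5, the factor of Toll-like receptor and MyD88 signalling, rose in both labelled genotypes. It lies on chromosome 6 at 29526625 to 29541871 (plus strand). Untreated WT-labelled libraries 1, 2 and 3 held 197, 87.1 and 78.5 normalised reads, and the IFN-β ones 1323, 893 and 973. KO-labelled libraries 1 and 2 went from 118 to 924 and from 98.0 to 1116. The treated and untreated libraries did not overlap, and WT-labelled library 1 was the highest of its group both untreated and treated. The log2 fold change was 3.23 ± 0.33 in WT-labelled cells (adjusted p = 0.00054) and 3.22 ± 0.41 in KO-labelled cells (adjusted p = 0.0026). The KO-labelled call was lost in a fit of the 4 KO-labelled libraries alone (adjusted p = 0.073).

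Irf2, the antagonist of Irf1, rose in both labelled genotypes. It lies on chromosome 8 at 46739732 to 46847458 (plus strand). Its normalised reads were 269, 329 and 392 in untreated WT-labelled libraries and 860.0, 1181 and 947 with IFN-β. KO-labelled libraries 1 and 2 went from 350.2 to 1523 and from 591 to 1920.1. The treated libraries did not overlap the untreated ones in either genotype. The log2 fold change was 1.59 ± 0.24 in WT-labelled cells (adjusted p = 0.0058) and 1.91 ± 0.29 in KO-labelled cells (adjusted p = 0.0082). The difference in KO-labelled cells passed in 15 of 19 alternatives. Those in which it was lost included leaving out KO-labelled untreated library 1 and leaving out KO-labelled IFN-β library 2. It was also lost in a fit of the KO-labelled libraries alone (adjusted p = 0.34). Leaving out a KO-labelled library leaves a lone library in that group, which is then assumed to vary like the other groups.

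Irf1, which activates interferon-stimulated and antigen-presentation genes, had the highest level per kilobase of exon of the 7 genes before treatment. It lies on chromosome 11 at 53770014 to 53778374 (plus strand). Its normalised reads were 648, 1659 and 1842 in untreated WT-labelled libraries 1, 2 and 3 and 3317, 4845 and 5014 with IFN-β. KO-labelled libraries 1 and 2 went from 541 to 3207 and from 1371 to 5147. The treated and untreated libraries did not overlap, but within each group the library numbered 1 was the lowest. The log2 fold change of 1.78 ± 0.46 in WT-labelled cells did not pass without the block (adjusted p = 0.124), nor did that of 2.24 ± 0.56 in KO-labelled cells (adjusted p = 0.137). With the library number as a block the same fold changes passed, at 1.78 ± 0.18 (adjusted p = 0.00054) and 2.24 ± 0.23 (adjusted p = 0.00055). DESeq2 also called both (adjusted p = 0.0077 and 0.0057), and the KO-labelled difference passed without WT-labelled untreated library 1 (adjusted p = 0.043).

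Read within a library number, the Irf1 level was 5.12, 2.92 and 2.72 times the untreated level in WT-labelled libraries 1, 2 and 3, and 5.93 and 3.75 times in KO-labelled libraries 1 and 2. The library numbered 1 had the lowest untreated level and the largest ratio in both genotypes. Libraries numbered 2 were above those numbered 1 by 0.98 ± 0.16 on the log2 scale for Irf1 (adjusted p = 0.0017) and by 0.46 ± 0.12 for Irf2 (adjusted p = 0.013), in the blocked fit. For Irf3, Irf5 and Irf7 that difference did not pass (0.06 ± 0.10, −0.43 ± 0.22 and −0.09 ± 0.43). The 2 of 5 members that passed stand against 48.6% of all tested genes that differed between these numbers (25.3% higher and 23.3% lower in number 2). Without all 4 libraries numbered 1, the log2 fold change of Irf1 was 1.495 in WT-labelled cells (adjusted p = 0.0062). In KO-labelled cells that leaves 1 library against 1, with a log2 difference of 1.91 and no replicate check of its own.

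Irf3, the latent factor that TBK1 activates, did not pass the test with IFN-β in either genotype. It lies on chromosome 7 at 44997648 to 45002848 (plus strand). Untreated WT-labelled libraries 1, 2 and 3 held 534, 596 and 483 normalised reads, and the IFN-β ones 472, 466 and 512. KO-labelled library 1 went from 352 to 373 and library 2 from 395 to 354. Treated and untreated libraries overlapped in both genotypes. The log2 fold change was −0.15 ± 0.14 in WT-labelled cells (95% confidence interval −0.48 to 0.18; adjusted p = 1) and −0.04 ± 0.18 in KO-labelled cells (−0.44 to 0.36; adjusted p = 1).

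Irf4 and Irf8 were at or near 0. Irf4, on chromosome 13 at 30749226 to 30766976, held 1 read over all 10 libraries, in KO-labelled IFN-β library 2. Irf8, on chromosome 8 at 120736358 to 120756694, held 4 reads, of which 3 were in WT-labelled IFN-β library 1 and 1 in WT-labelled IFN-β library 2. No group mean was above the floor, so no fold change is given and neither gene was tested. At this depth a level under about 3 reads per library is not detectable.

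Of the 7 members, 5 passed the low-count filter. With IFN-β, 3 of these 5 rose in WT-labelled cells and 3 in KO-labelled cells (Irf2, Irf5 and Irf7), against 2.21% of all genes tested that rose in WT-labelled cells and 1.83% in KO-labelled cells (2.21% and 1.84% in either direction). With the block 4 of 5 rose in each, against 4.68% and 3.37% of all genes (4.95% and 3.48% in either direction). None fell. The 2 comparisons do not share libraries, but the fits share an estimate of the spread.

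**Figure D2:**
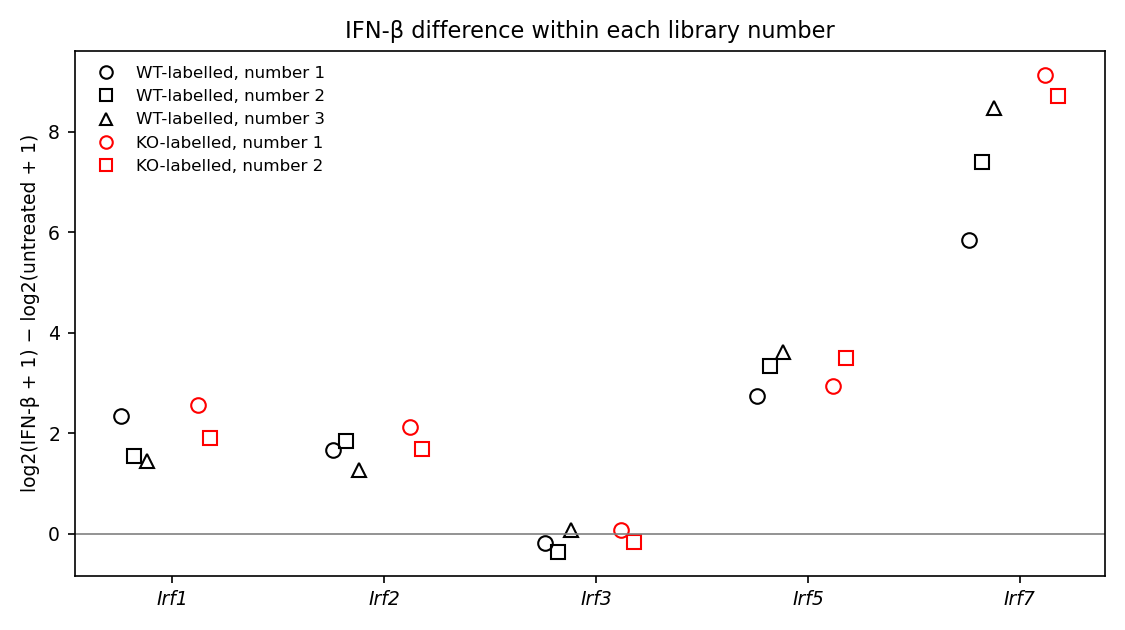
Difference between the IFN-β and untreated library of the same number, as log2(normalised reads + 1), for 5 IRF genes, with WT-labelled libraries in black and KO-labelled ones in red and the symbol giving the library number. Irf7 lies between 5.85 and 9.14, Irf5 between 2.75 and 3.62, Irf1 between 1.44 and 2.57, Irf2 between 1.27 and 2.12, and Irf3 between −0.36 and 0.08.

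For levels between genes, normalised reads were divided by the length of the gene's merged GENCODE M21 exons (2.905 kb for Irf5 to 7.396 kb for Irf2). The merged exons of Irf7 (3.776 kb) cover every base from 141262706 to 141266481, so no intron is left out of its length. For Irf1 they cover 3.976 kb of the span from 53770014 to 53778374. The level per kb of Irf7, its place in the order and its share depend on this length. In untreated WT-labelled cells the order was Irf1 (348 normalised reads per kb), Irf3 (156), Irf2 (44.6), Irf5 (41.6) and Irf7 (7.49). Irf2 and Irf5 overlapped between libraries there, and in library 1 Irf1 (163) was close to Irf3 (155). In untreated KO-labelled cells the order of the means was the same, with Irf1 at 240.4, Irf3 at 109, Irf2 at 63.6, Irf5 at 37.3 and Irf7 at 1.68.

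With IFN-β, Irf7 stood next to Irf1. In WT-labelled cells the means per kb were 1105 for Irf1, 879.8 for Irf7, 366 for Irf5, 140.4 for Irf3 and 135 for Irf2, and in library 1 Irf7 (906) exceeded Irf1 (834). In KO-labelled cells they were 1051 for Irf1, 911 for Irf7, 351 for Irf5, 233 for Irf2 and 106 for Irf3. Irf2 thus lay above Irf3 in both KO-labelled IFN-β libraries, while in the WT-labelled ones their ranges overlapped. As a share of the summed level per kb of the 7 genes, Irf7 went from 1.52% to 33.6% in WT-labelled cells and from 0.365% to 34.5% in KO-labelled cells (means over libraries). The share of Irf3, whose own level did not pass a test of change, went from 27.3% to 5.35% and from 25.6% to 4.11%. The summed level went from 598 ± 139 to 2626 ± 155 (SD, n = 3 each) and from 451 ± 175 to 2651 ± 619 (SD, n = 2 each).

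**Figure D3:**
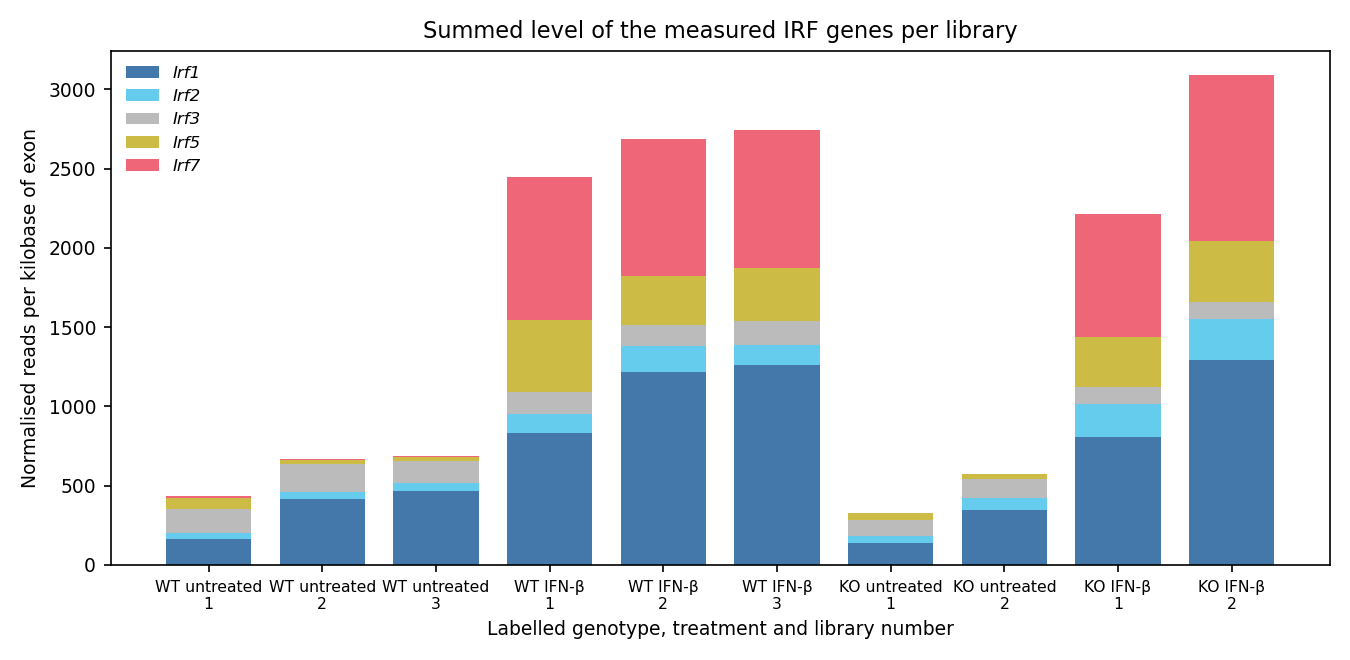
Normalised reads per kilobase of exon of Irf1, Irf2, Irf3, Irf5 and Irf7, stacked for each library (Irf4 and Irf8 are too low to draw). The 5 untreated libraries reach 328 to 686 and the 5 IFN-β libraries 2214 to 3089, with Irf1 and Irf7 making up most of the treated bars.

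The comparison of KO-labelled with WT-labelled cells asks which IRF genes differ with the labelled genotype. Without the block none of the 5 tested members passed in either treatment, against 6.23% of all genes untreated (3.0% higher and 3.23% lower) and 6.55% with IFN-β (2.92% higher and 3.64% lower). edgeR's quasi-likelihood test on recovered reads also called none, and DESeq2 called 2 untreated (Irf3, adjusted p = 0.019, and Irf7, adjusted p = 0.023) and none with IFN-β. At an unadjusted p under 0.05 limma gave 2582 and 2580 of the 12313 genes. With the block 3 members passed untreated and 1 with IFN-β, against 26.6% of all genes untreated (13.5% higher and 13.1% lower) and 26.0% with IFN-β (12.7% higher and 13.3% lower). In bulk RNA, fewer cells of a type and less RNA per cell cannot be told apart. Nor can the genotype be told apart from any other difference between the WT-labelled and the KO-labelled cells.

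Irf2 was higher in KO-labelled libraries of the same number, 1.30 and 1.79 times the WT-labelled level untreated and 1.77 and 1.63 times with IFN-β. Untreated the log2 difference was 0.48 ± 0.27 (adjusted p = 0.36), and 0.53 ± 0.16 with the block (adjusted p = 0.042). With IFN-β it was 0.79 ± 0.27 (adjusted p = 0.124), and 0.84 ± 0.16 with the block (adjusted p = 0.0071). The treated KO-labelled libraries did not overlap the treated WT-labelled ones, while the untreated ones did.

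Irf3 was lower in KO-labelled libraries, 0.660 and 0.662 times the WT-labelled level of the same number untreated and 0.790 and 0.759 times with IFN-β. All 4 KO-labelled libraries (352 to 395 normalised reads) were below all 6 WT-labelled ones (466 to 596). The log2 difference was −0.52 ± 0.16 untreated (adjusted p = 0.099), and −0.54 ± 0.14 with the block (adjusted p = 0.023). With IFN-β it was −0.41 ± 0.16 (adjusted p = 0.186), and −0.43 ± 0.14 with the block (adjusted p = 0.053), while edgeR with the block called it (−0.45; adjusted p = 0.045).

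Irf7 was read on few untreated reads. Untreated, the KO-labelled level was 0.0721 and 0.461 times the WT-labelled level of the same number, on 53, 19 and 8 whole reads in the WT-labelled libraries and 4 and 9 in the KO-labelled ones, and the groups overlapped. The log2 difference was −1.65 ± 0.64 (adjusted p = 0.177), and −1.96 ± 0.58 with the block (adjusted p = 0.038). edgeR with the block did not call it (adjusted p = 0.086). Without WT-labelled untreated library 1, which held the most reads, the log2 difference was −0.93 (adjusted p = 0.24), and without all libraries numbered 1 it was −0.50 (adjusted p = 0.57). With IFN-β the level was 0.855 and 1.21 times the WT-labelled one and the log2 difference 0.03 ± 0.64 (95% confidence interval −1.40 to 1.47; adjusted p = 0.99). With the block it was −0.28 ± 0.58.

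Irf1 and Irf5 showed no genotype difference beyond the spread, with wide intervals. For Irf1 the log2 difference was −0.54 untreated (95% confidence interval −1.70 to 0.61; adjusted p = 0.62) and −0.09 with IFN-β (−1.24 to 1.07; adjusted p = 0.95). With the block the latter was 0.10, the opposite sign. For Irf5 it was −0.04 untreated (−0.88 to 0.81; adjusted p = 0.97) and −0.04 with IFN-β (−0.89 to 0.80; adjusted p = 0.97), and both turned positive without all libraries numbered 1 (0.24 and 0.26).

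**Figure D4:**
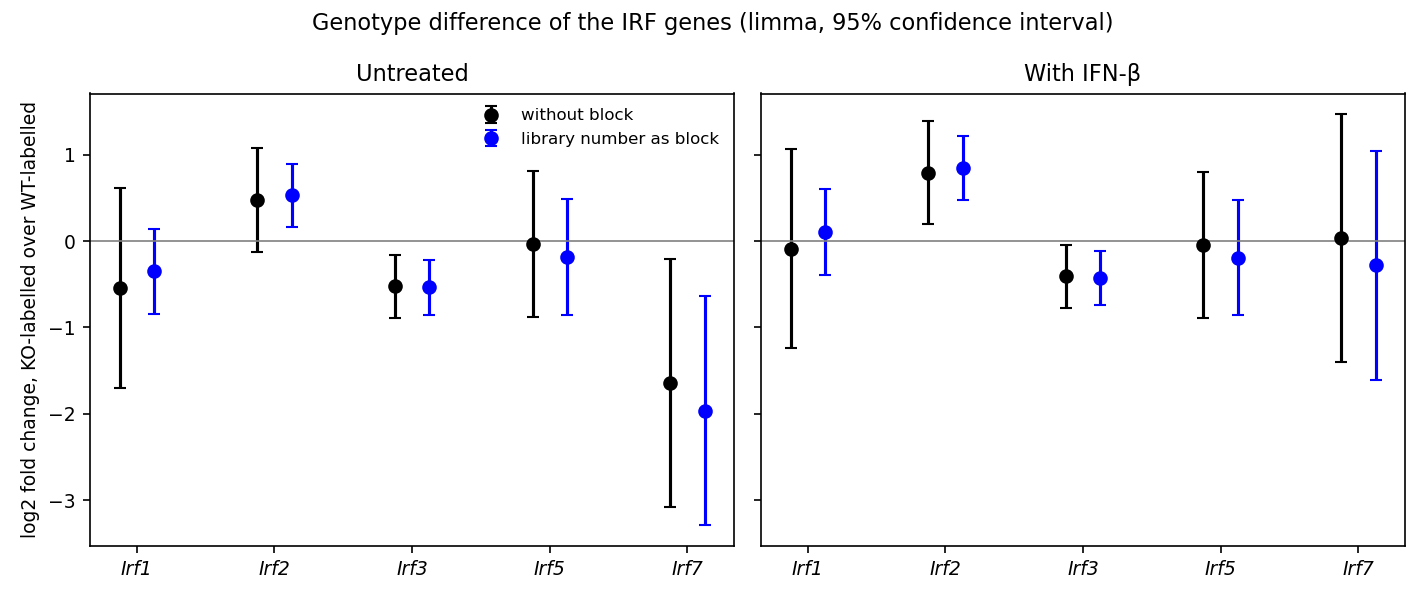
limma log2 fold change of KO-labelled over WT-labelled cells for 5 IRF genes, untreated (left) and with IFN-β (right), with the 95% confidence interval as bars, without a block (black) and with the library number as a block (blue). The interval of Irf2 with IFN-β lies above 0 in both fits (0.19 to 1.39 and 0.48 to 1.21) and that of Irf3 below 0 in all 4. Untreated, the interval of Irf7 lies below 0 in both fits (−3.08 to −0.21 and −3.29 to −0.64). That of untreated Irf2 lies above 0 with the block alone (0.16 to 0.90). All intervals are before adjustment over all genes.

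Because Irf1 and Irf2 bind the same sites, their per-kilobase ratio was read in each library. It was 4.48, 9.37 and 8.73 in untreated and 7.18, 7.63 and 9.85 in treated WT-labelled libraries. In KO-labelled libraries it was 2.87 and 4.32 untreated and 3.92 and 4.99 with IFN-β. Treated and untreated libraries overlapped in both genotypes. The ratio was lower in the KO-labelled library of the same number in each treatment.

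The interaction asks whether the IFN-β response of an IRF gene differs between the labelled genotypes. No member passed, and limma called 0.0% of all tested genes, with 36 genes at an unadjusted p under 0.05 (151 with the block); edgeR called 0 and DESeq2 1. The difference was 1.68 ± 0.90 on the log2 scale for Irf7 (95% confidence interval −0.35 to 3.71), a larger fitted response in KO-labelled cells that ranged from 0.77 to 2.31 over the alternatives, the lowest without all libraries numbered 1. It was 0.46 ± 0.72 for Irf1 (−1.18 to 2.09), 0.31 ± 0.38 for Irf2 (−0.54 to 1.16), 0.11 ± 0.23 for Irf3 (−0.41 to 0.63) and −0.01 ± 0.53 for Irf5 (−1.21 to 1.19). Each had adjusted p = 1. These intervals do not show that the responses were alike. The interaction uses the same libraries as the 4 comparisons above, so it is not separate evidence.

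Other genes around the IRFs were read from lists. Irf9, the DNA-binding subunit of the ISGF3 complex, rose from 202 ± 59.0 to 1605 ± 187 normalised reads in WT-labelled cells and from 161 ± 11.4 to 1650 ± 35.8 in KO-labelled cells (log2 fold change 3.02 and 3.35; adjusted p = 6.5e-05 and 0.00015). Its partner Stat2 rose by 4.31 in WT-labelled cells and by 5.26 in KO-labelled cells on the log2 scale, and Stat3 passed in WT-labelled cells with the block alone (0.40 on the log2 scale; adjusted p = 0.016). The median of all tested genes was −0.03 in both comparisons.

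Of 19 tested receptors, adaptors and kinases that lead to IRF activation, 5 rose in each genotype and none fell (list medians 0.30 and 0.17), where 2.21% and 1.83% of all tested genes rose. With the block 6 rose in WT-labelled and 5 in KO-labelled cells, where 4.68% and 3.37% of all tested genes rose. Those that rose without the block included the RNA sensors Tlr3 (5.43 in WT-labelled, 5.01 in KO-labelled cells on the log2 scale), Ifih1 (4.63 and 5.62) and Ddx58 (4.14 and 4.48). The others were the adaptor Myd88 (1.82 and 2.00) and Azi2 (1.02 and 1.04), an adaptor of TBK1. Azi2 lies outside the naming rule and was added after its values were seen. The kinase genes Tbk1 and Ikbke did not pass without the block. Their means were 642 and 154.5 normalised reads untreated and 854 and 165 with IFN-β in WT-labelled cells. Every Tbk1 library with IFN-β nevertheless lay above the untreated ones of its genotype. The ranges were 734 to 920 against 556 to 716 in WT-labelled cells and 959 to 1176 against 705 to 817 in KO-labelled cells. Those of Ikbke overlapped in both genotypes. With IFN-β, Tlr7 and the TBK1-binding Tbkbp1 were lower in KO-labelled cells (−4.09 and −2.23; adjusted p = 0.044 and 0.042), where 3.64% of all tested genes were lower. With the block 6 of the list were lower and 1 higher, where 13.3% and 12.7% of all genes were. The difference of Tlr7 rests on few reads, with means of 19.3 ± 12.8 (SD, n = 3) normalised reads in WT-labelled and 0.0 in KO-labelled cells with IFN-β.

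Of 12 tested partners and modifiers of IRF proteins, 4 rose in each genotype and none fell, where 2.21% and 1.83% of all tested genes rose. Usp18, which restrains the interferon receptor, rose by 9.94 on the log2 scale in WT-labelled cells, and Trim21, a ubiquitin ligase that acts on IRF proteins, rose by 4.73 and 5.07 in WT-labelled and KO-labelled cells. Peli1, a ubiquitin ligase known to act on Irf5, rose by 1.23 and 1.43. Batf2, a partner of Irf1, held 0 reads over the untreated WT-labelled libraries and 72.5 ± 19.9 (SD, n = 3) normalised reads with IFN-β. Trim28 was lower in KO-labelled cells in both treatments (−0.58 and −0.52; adjusted p = 0.033 and 0.049).

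None of the 16 measured type I interferon genes, which Irf3 and Irf7 are best known for, passed the low-count filter. Each held at most 2 reads over the libraries of any group, under the floor of 3 reads in treated and untreated cells. Of 14 tested genes known as IRF targets, 9 rose in WT-labelled and 10 in KO-labelled cells, where 2.21% and 1.83% of all tested genes rose (medians 4.83 and 6.09). With the block 13 and 11 rose, where 4.68% and 3.37% of all genes did. Untreated, 7 of them were lower in KO-labelled cells and none higher, where 3.23% of all tested genes were lower (9 with the block, where 13.1% were). Among them were Ifit1 (−3.73; adjusted p = 0.012), Cxcl10 (−3.68; adjusted p = 0.0013), Il6 (−5.39; adjusted p = 0.0011) and Nos2 (−5.77; adjusted p = 0.0089). With IFN-β only Nos2 of these 14 was lower without the block (−5.81, adjusted p = 0.0087), where 3.64% of all tested genes were lower. With the block 5 of them were lower, where 13.3% of all tested genes were. Many regulators act on these genes, and the part of the IRFs in their levels was not tested.

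The genes with the profile closest to each member were found by the root mean square difference of log2 profiles over the 10 libraries, each centred on its own mean, among 11376 tested genes with a standard name. Irf5 was nearest to Irf9 (0.24), then Lama3 (0.34) and Dnase1l3 (0.40), against 1.65 for its own deviation from a flat line. Irf1 was nearest to Apobec3 (0.21), Vwa5a (0.25) and Rbm43 (0.27), against 1.128. Irf2 was nearest to Lgals8 (0.26), BC051226 (0.29) and Trim26 (0.29), against 0.95. Irf7 was nearest to Oas1a (0.39), Ifit3 (0.76) and D14Ertd668e (0.76), against 4.05. Irf3, whose profile was nearly flat (0.25), was nearest to Mrps9, Rpl39 and Rpap3 (0.07 each), which like it had lower means in the KO-labelled groups. Lama3 and Dnase1l3 had means of 2.11 and 0.73 normalised reads in untreated WT-labelled cells, so their profiles rest on few reads. The same holds for Oas1a (5.02 in untreated WT-labelled and 0.0 in untreated KO-labelled cells) and D14Ertd668e (2.45 and 2.93).

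The neighbouring genes bear on how the reads were assigned, since the strand setting of the counting is not given. Irf3 overlaps Bcl2l12, which lies on the opposite strand at 44991222 to 44998712 of chromosome 7. Scaf1, also on the opposite strand, has its 3′ end 100 bases beyond the other end of Irf3. Irf5 overlaps the opposite-strand Tnpo3 (29540827 to 29609887) and Irf7 the opposite-strand Phrf1 (141228784 to 141262750) at their 3′ ends. None of these 4 neighbours passed in either IFN-β comparison, with or without the block. Gm12216, 5044 bases from Irf1 on the opposite strand, rose with IFN-β in WT-labelled cells with the block (2.13 ± 0.34 on the log2 scale; adjusted p = 0.0064) and not without it (adjusted p = 0.51). Other annotated genes that overlap Irf1, Irf2 and Irf8 were not analysed here. Bcl2l12 had means of 197 and 153 normalised reads in WT-labelled and 145 and 121 in KO-labelled cells, untreated and with IFN-β. Tnpo3 had 2829 and 2981, then 4023 and 4154, and was higher in KO-labelled cells with the block (0.50 and 0.46 on the log2 scale; adjusted p = 0.0072 and 0.0097). Phrf1 had 1943 and 1815, then 1481 and 1429, and was lower with the block (−0.42 and −0.37; adjusted p = 0.012 and 0.019). Prmt1, 11080 bases from Irf3, was lower as well (−0.71 and −0.61 with the block; adjusted p = 0.0066 and 0.013). Without the block none of Tnpo3, Phrf1 and Prmt1 passed between genotypes (adjusted p from 0.058 to 0.24). With it 26.6% of all tested genes passed untreated and 26.0% with IFN-β. Whether reads of overlapping genes entered the counts of Irf3, Irf5 or Irf7 was not tested. Enpp6, 139429 bases from Irf2, was at 0 in every library.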

How the data were processed

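Total RNA of 10 libraries of immortalised mouse embryonic fibroblasts was sequenced with a stranded kit. The submitters' processing notes name cutadapt 1.13, STAR 2.5.2a, HTSeq, DESeq2 and the mm10 build (GRCm38), while the annotation, strand setting and filters are not given in the sources used here. The deposited values are a signal per gene, which the values themselves show to be reads scaled by 1 constant per library; normalised reads here means this scale. In each library all values came out as whole numbers of reads, within 0.001 reads, once divided by the value of 1 read, which gave 13565815 to 16329729 reads per library. As these values are not raw counts, limma-trend took the place of the count test foreseen for raw counts.

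limma 3.58.1 (R 4.3.3) was run on log2(normalised reads + 1), with 4 group means fitted to the 10 libraries together. Of 23337 genes, 12313 had enough recovered reads to be tested, as judged with a minimum count of 10 by the filterByExpr function (edgeR 4.0.16). The threshold was a two-sided p of 0.05 after Benjamini-Hochberg adjustment over the genes kept, and unless another tool is named every adjusted p is from limma. Fold changes on this scale understate the change of low genes. Alternatives were the library number as a block, edgeR's quasi-likelihood test and DESeq2 1.42.0 on recovered reads, TMM rescaling, a pseudocount of 5, no filter, the compared groups alone, each library left out and, added after seeing the data, all 4 libraries numbered 1 left out. The fits were tested on simulated data with the same spread setting for all genes and no difference between library numbers. That test therefore does not show how the fits perform where library numbers differ, as they did here.

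Library numbers come from the titles, and the labels do not say what they mark. As a check of pairing, each library's deviation from its group mean was correlated with those of other groups: the correlation was 0.50 to 0.89 for the 13 pairs that share a number and at most 0.34 for the 24 pairs that do not. In the KO-labelled groups, which hold 2 libraries each, the deviations from the group mean are exact opposites. Pairs with a KO-labelled library are therefore not separate values. For example, KO-labelled untreated library 1 had 0.89 with IFN-β library 1 and −0.89 with IFN-β library 2 of that genotype. On these values the numbers were taken to pair the libraries. No pair of libraries was identical. Loci, exon lengths and neighbours are from GENCODE M21 (GRCm38), and promoters from RefSeq (GRCm38.p6), in which all 7 genes matched by symbol.

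The 7 genes and the lists around them were chosen with earlier results of these data known. The text names the 7 genes, the 3 genes with the closest profile to each tested one, the nearest protein-coding neighbours, and up to 4 passing genes with the largest fold change per list and comparison. Some genes that this rule or the lists would name are not reported here.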

Additional observations from a re-analysis of the deposited data

How the results depend on the processing

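Of 470 recomputed values, 418 kept their direction and their side of the threshold, 19 came to pass, 5 no longer passed and 28 changed sign; the cause was not tested for any of them. Leaving out all 4 libraries numbered 1 was chosen after seeing the data; it leaves 1 KO-labelled library in each treatment, so the spread then comes from WT-labelled libraries alone. With the library number as a block, 609 genes differed in WT-labelled cells after IFN-β (272 without; edgeR with the block 619, DESeq2 410; 193 to 294 leaving out 1 library) and 429 in KO-labelled cells (227 without; edgeR with the block 425, the KO-labelled libraries alone 10, with 1 of the IRF genes; 134 to 218 leaving out 1 library, the lowest without KO-labelled IFN-β library 2, with 2 to 4 of the IRF genes). Between genotypes, the untreated count was 767, with 3275 under the block, 3343 with edgeR and the block, 1513 with DESeq2, 280.0 with only the untreated groups and 340.0 to 694 leaving out 1 library; the IRF genes numbered 0, then 3, 2 and 2. With IFN-β it was 807, with 3203 under the block, 3285 with edgeR and the block, 1504 with DESeq2 and 286 to 849 leaving out 1 library; the IRF genes numbered 0, then 1 under the block and 2 with edgeR and the block. DESeq2 called 1 gene for the interaction. The sign changes were these. Between genotypes with IFN-β, Irf1 was 0.10 under the block, 0.070 with edgeR and the block and 0.063 without the libraries numbered 1, and Irf7 was -0.28 and -0.094 under the first 2 of these. Without the libraries numbered 1, Irf5 was 0.24 untreated and 0.26 with IFN-β, and the interaction was -0.023 for Irf3 and 0.017 for Irf5, which was 0.088 with edgeR, 0.075 with edgeR and the block and 0.089 with DESeq2. Leaving out 1 library, the values ran from -0.12 to 0.043 for Irf3 with IFN-β in KO-labelled cells, from -1.21 to 0.13 for Irf1 and -0.28 to 0.38 for Irf5 between untreated genotypes, from -0.43 to 0.25 for Irf1, -0.18 to 0.12 for Irf5 and -0.18 to 0.25 for Irf7 between treated ones, and from -0.21 to 1.12 for Irf1, -0.062 to 0.69 for Irf2 and -0.42 to 0.23 for Irf5 in the interaction. Beyond the calls given with the results, the block changed no other call of an IRF gene in limma.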
